A study of Bos taurus with 40 samples.

Results

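Liver and skeletal muscle of the same herd of purebred Simmental cattle were compared over 33 samples, 17 of liver and 16 of muscle, out of the 40 samples of the series. The 33 were selected on measured values. The 7 samples left out were 4 labelled as bull muscle and 3 labelled as heifer liver. In them the genes at least 32-fold higher in the other tissue reached 47.0% to 115% of that tissue's mean level. Because the samples were chosen on the contrast between the tissues, differences between liver and muscle within the 33 are given as a description with no test. Tests of that contrast were taken from the fit over all 40 samples under their labels, in which no sample was left out.

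Each tissue of each sex was represented by 10 animals, 5 of high and 5 of low residual feed intake (RFI). High RFI animals eat more than is predicted from their size and growth, and low RFI animals eat less. After selection, bull liver kept 10 samples (5 high and 5 low RFI), heifer liver 7 (4 high and 3 low), bull muscle 6 (4 high and 2 low) and heifer muscle 10 (5 high and 5 low). All animals came from parents ranked high or low for RFI, were housed at about 15 months of age, were fed concentrate ad libitum with grass silage, and were biopsied when the intake test ended. Liver was taken by punch biopsy and muscle from the M. longissimus thoracis et lumborum. Of the 20 animal tags in each tissue, 5 occur in both. The labels do not say whether the other tags, some of them short, mark different animals, so liver and muscle samples that share an animal may be more than these 5 pairs, and the fits without an animal term treat the tissues as independent.

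The liver secretes most plasma proteins and carries out gluconeogenesis, urea synthesis and detoxification. Secretion passes through the endoplasmic reticulum (ER), where chaperones fold new proteins. Skeletal muscle is built from sarcomeres, repeated arrays of contractile proteins, and draws on mitochondria and glycolysis for ATP. The deposited files name genes by Ensembl identifier only, and symbols were available for 16 genes, those named by the study for a difference between RFI groups in these same samples. They fall into 5 groups by role. COX1, COX3, cytb, ND5 and ND6 are encoded in the mitochondrial genome. HSPA5, HYOU1, DNAJB11, MANF and CRELD2 belong to the ER chaperone and ER stress response. LIMS2 and ACTA2 belong to cell adhesion and the cytoskeleton. GSTT1, GMPPB and GNPNAT1 are enzymes of conjugation and sugar nucleotide synthesis. DBP is a transcription factor of the circadian output. The defining markers of hepatocytes and of muscle fibres are not among the 16, so the tissue labels could not be checked by marker name.

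Values were deposited as CPM (reads of a gene scaled to a library total of 1000000), and every one was a whole multiple of the worth of 1 read, so depth could be recovered. The 17 liver samples held 2368340 to 35691049 reads (median 16650353) and the 16 muscle samples 10706431 to 30300667 (median 23424541). The shallowest was liver of bull 2713. No 2 of the 40 samples were alike within sampling noise, the closest of 780 pairs having a chi-square of 11.9 per gene. Among the kept samples, muscle of heifer 2628 lay farthest from its group, with a median distance per gene of 0.71 on the log2 scale, against at most 0.37 in the other 32. Muscle of bull 2641 and of heifer M70 carried far more mitochondrial reads than the other muscle samples. Values without these samples are given for some of the results below.

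The kept and the left-out samples were far apart in profile. Among the genes listed for all 4 combinations of tissue and sex, 28 were at least 32-fold higher in kept liver and 28 at least 32-fold higher in kept muscle. The 28 liver genes, summed, reached 0.233% to 1.18% of their mean liver level in the 16 kept muscle samples (median 0.356%). In the 4 muscle samples left out they reached 53.8% (M74), 92.1% (M12), 93.4% (2712) and 107% (M6). The 28 muscle genes reached 0.153% to 0.63% of their mean muscle level in the 17 kept liver samples (median 0.229%), and 47.0% (2728), 81.6% (L16) and 115% (L58) in the 3 liver samples left out. The values just inside and just outside the selection were 1.18%, in muscle of bull 2666, and 47.0%, in liver of heifer 2728. The level of the genes of the labelled tissue is not given for the samples left out, so a mixed and a full profile are not told apart. These figures restate the selection and test nothing. In biopsies of whole tissue, fewer cells of a type and less RNA per cell cannot be told apart.

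**Figure D1:**
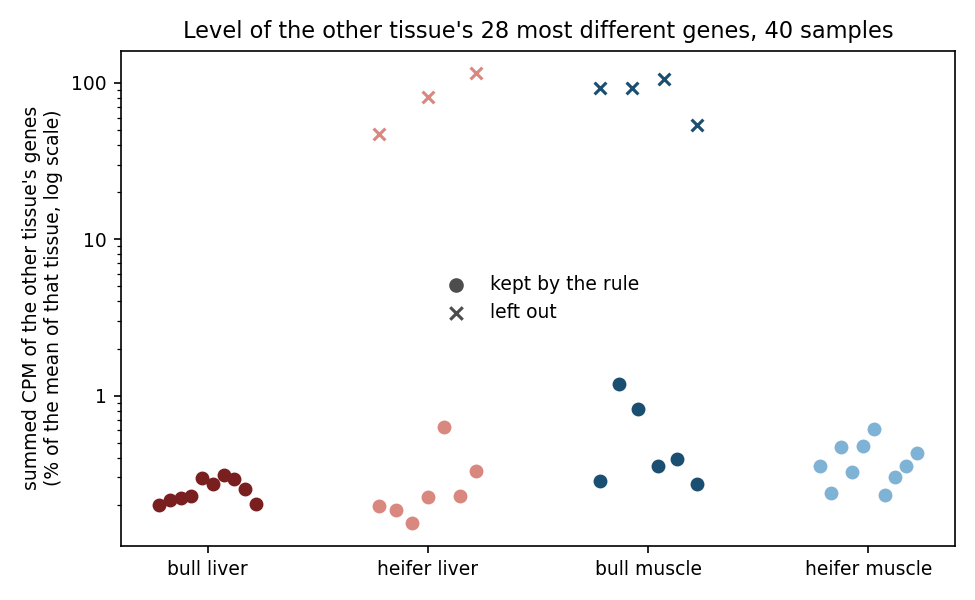
Summed CPM of the 28 genes at least 32-fold higher in the other tissue, as a percentage of that tissue's mean, on a log axis, for each of the 40 samples by tissue and sex. Circles are the 33 samples kept and crosses the 7 left out. All circles lie at or below 1.18% and all crosses at or above 47.0%.

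The files listed different genes for the 2 tissues, and liver had the longer list. In all, 8531 genes were listed in at least 1 of the 4 sets of files (bull liver, heifer liver, bull muscle, heifer muscle). Of these, 4416 were listed in all 4 sets, 2015 for liver in both sexes and never for muscle, and 796 for muscle in both sexes and never for liver. Another 509 genes were listed in 1 tissue and 1 sex only. Every listed gene had at least 10 CPM in 5 or more of the 10 samples of its set, so a gene that is not listed was not thereby shown to be silent. A gene below that level has no value here, and no fold can be given for it.

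Genes listed for liver only were mostly of low level. Their mean in bull liver had a median of 24.9 CPM, with quartiles of 15.6 and 55.6, and in heifer liver a median of 23.7 CPM. Only 5 of the 2015 passed 1000 CPM in bull liver and 7 in heifer liver, and the highest mean over the 17 liver samples was 1231 ± 516 CPM (SD). Together the 2015 genes took 13.7% to 15.3% of the reads of a liver sample (median 14.5%). Genes listed for muscle only reached higher levels, a contrast between lists rather than between tissues. Of the 100 most abundant liver genes, 0 were liver-only and 64 were also listed for bull muscle but not heifer muscle. Of the 100 most abundant muscle genes, 22 were muscle-only and 16 were also listed for heifer liver but not bull liver. The listing thus set which abundant genes each class could hold. The most abundant of the 796 by mean had 2994 to 10350 CPM (median 3889), 21 passed 1000 CPM in bull muscle and 23 in heifer muscle, and together they took 8.1% to 15.1% of the reads of a muscle sample (median 10.6%). The highest of these shares, 15.1%, was in heifer 2628.

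A further 572 genes were listed for liver of both sexes and for bull muscle, but not for heifer muscle. They took 22.1% to 27.0% of the reads of a liver sample (median 24.6%), more than the 2015 liver-only genes, and 64 of the 100 most abundant liver genes were among them, as were 4 of the top 10 and 114 of the top 1000, where 294 were liver-only. In the 6 kept bull muscle samples their median level was 8.73 CPM, and in the 4 bull muscle samples left out 26.8 CPM, higher in 566 of the 572. With the kept bull muscle samples alone, 548 of the 572 (95.8%) did not have 10 CPM in 5 samples. Their presence in the bull muscle list thus went with the 4 samples left out. The mirror class held 118 genes listed for muscle of both sexes and for heifer liver, but not bull liver. These genes took 9.77% to 12.9% of the reads of a muscle sample, and 102 of the 118 (86.4%) lacked 10 CPM in 5 of the kept heifer liver samples. By contrast, only 418 (9.47%) of the 4416 genes listed in all 4 sets fell short in kept bull muscle, and 118 (2.67%) in kept heifer liver. Counting the 572 and the 118 genes, whose listing in the other tissue is limited to 1 sex, with the single-tissue genes, 37.2% to 42.0% of liver reads and 18.0% to 26.9% of muscle reads lay on genes without a listing in both sexes of the other tissue.

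Reads were more concentrated in muscle than in liver. The 100 most abundant genes of a sample took 60.1% to 73.5% of the reads in the 16 kept muscle samples (median 64.0%) and 47.6% to 52.8% in the 17 kept liver samples (median 50.0%). The 10 most abundant took 27.1% to 38.3% in muscle (median 29.6%) and 21.8% to 27.1% in liver (median 24.0%). In muscle 19 to 44 genes (median 35) made up 50% of the reads, in liver 82 to 120 (median 100), and no sample of one tissue came within the range of the other. The single most abundant gene took 4.70% to 11% in muscle and 5.58% to 9.60% in liver, ranges that overlap.

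Over all 40 labelled samples, the permutation test within sex (two-sided, 100000 permutations, adjusted over 4 measures) gave a muscle minus liver difference of 11.7 percentage points for the top 100 genes (adjusted p = 2e-05) and of 5.35 points for the top 10 (adjusted p = 2.67e-05). For the number of genes to 50% of the reads the difference was -49.55 genes (adjusted p = 2e-05). For the top gene the difference was -0.314 points (adjusted p = 0.563). The sizes depended on which genes were counted. With only the 4416 genes listed in all 4 sets, the difference was -12.95 genes to 50% (permutation p = 3e-05), 8.28 points for the top 100 (p = 1e-05), 2.38 points for the top 10 (p = 0.0308) and -2.67 points for the top gene (p = 0.0049), the last share then being lower in muscle. These shares are of the reads on the 4416 genes, which held a median of 57.7% of kept liver reads and 73.9% of kept muscle reads. The top gene of each kept sample was among the 4416, so only the total under it changed. The unadjusted p of 1e-05 behind the top 100 genes and the number of genes to 50% is the smallest that this number of permutations gives. The order of the tissues was also seen without the 5 mitochondrial genes that have a symbol. With these 5 removed, 93 to 142 genes made up 50% of the remaining reads in kept liver and 25 to 46 in kept muscle. Any other mitochondrial genes in the lists have no symbol here and were not removed. Without bull 2641 and heifer M70, whose mitochondrial share was highest, the number was 24 to 44 in the other 14 muscle samples.

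**Figure D2:**
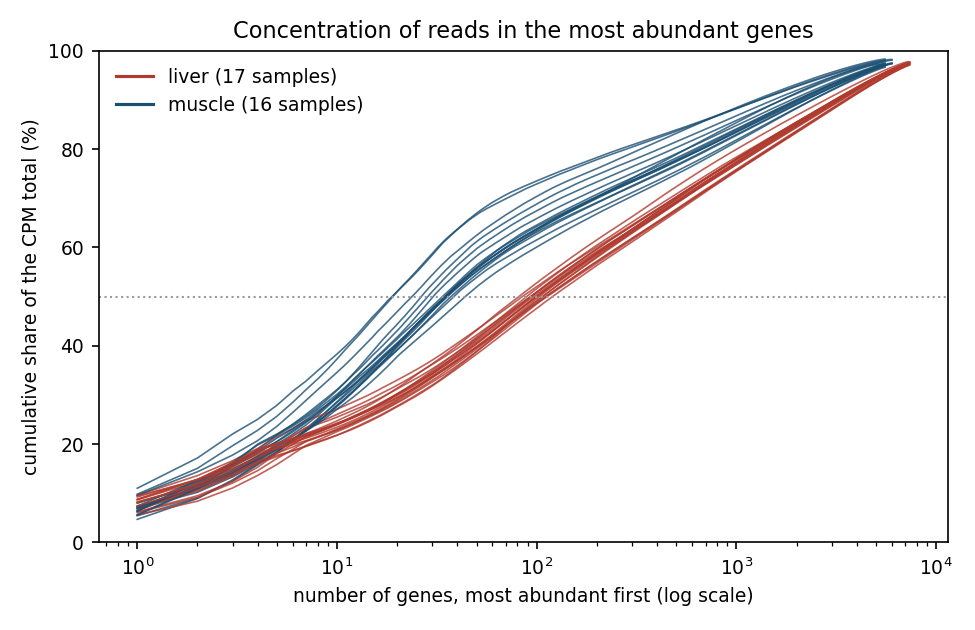
Cumulative share of the CPM total (y, %) against the number of genes taken in order of abundance (x, log scale) in each of the 33 samples. The dotted line marks 50%, which muscle samples reach with 19 to 44 genes and liver samples with 82 to 120. The curves end below 100% because only the listed genes are counted.

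The most abundant genes of the tissues were nearly disjoint. Of the 10 highest in each, 1 was shared, the mitochondrial COX1, and of the 100 highest 12 were shared (12% of each list). In liver the most abundant gene in 17 of 17 samples was ENSBTAG00000017121, at 55848 to 95989 CPM (median 80519). In the kept muscle samples it had 21.3 to 739 CPM (median 47.3), a log2 difference of 10.01 ± 0.35 (SE). Another liver gene, ENSBTAG00000007273, had 22884 to 39902 CPM (median 27552) in liver and 6.92 CPM at its lowest in muscle, with a median there of 18.7. In muscle the top gene was ENSBTAG00000046332 in 11 of 16 samples, COX1 in 3 and ENSBTAG00000018204 in 2. The first had 42299 to 95813 CPM in muscle (median 63489) and 10.8 to 273 CPM in liver (median 46.9), a log2 difference of -10.26 ± 0.27 (SE). ENSBTAG00000018204 was more variable among muscle samples, at 6339 to 65188 CPM (median 44937), and had a median of 32.9 CPM in liver. The files do not pair these identifiers with symbols. For each of the 4 genes the lowest sample of one tissue lay far above the highest of the other.

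Across the 4416 genes the tissues differed widely. In the 33 samples, on the log2(CPM + 1) scale after scaling, the median liver minus muscle difference was 0.05 (quartiles -0.69 and 0.77), and the median size of a difference, whatever its sign, was 0.73. On CPM as deposited, without scaling between samples, the median was 0.16, and the scaling itself sets the centre of the differences near 0. At least 2-fold differences were seen for 875 genes higher in liver and 801 higher in muscle, at least 4-fold for 313 and 251, and at least 8-fold for 127 and 101. On CPM as deposited the at least 2-fold counts were 988 and 713, so the balance between directions depends on the scaling. Without muscle of bull 2641 and heifer M70 they were 837 and 837. The remaining 2740 genes (62%) differed by less than 2-fold. Values of the 2 tissues did not overlap for 757 genes higher in liver (17.1% of those compared) and 573 higher in muscle (13.0%), and all 56 genes at least 32-fold apart were among them. The listing limits how far genes of low level can differ. Every one of the 4416 genes had at least 10 CPM in 5 samples of each set, so a gene of low mean had little room to reach 2-fold. Among the 1104 genes of lowest mean CPM 10.1% differed at least 2-fold, and among the 1104 of highest mean CPM 63.0%.

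The fit over all 40 labelled samples called 1728 genes higher in liver (39.1% of 4416) and 1669 higher in muscle (37.8%), by limma with sex as a block and a Benjamini-Hochberg adjusted p below 0.1. Without muscle of bull 2641 and heifer M70 the counts were 1537 and 1842, so which direction held more genes depended on the samples included. All 56 genes at least 32-fold apart in the 33 samples were called, as their choice on samples that make up most of the 40 leads to, and this is no independent support. The sizes were smaller with the 7 samples left out by the rule included: the 56 genes had a median size of 6.89 in the 33 samples and 5.03 in the 40. The 28 liver genes took 19.1% to 22.9% of liver reads and 0.0481% to 0.243% of muscle reads. The 28 muscle genes took 28.3% to 37.7% of muscle reads and 0.0506% to 0.209% of liver reads. By comparison, 875 genes that differed by less than 0.25 on the log2 scale took 7.19% to 10.1% of liver reads and 6.31% to 16.3% of muscle reads.

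**Figure D3:**
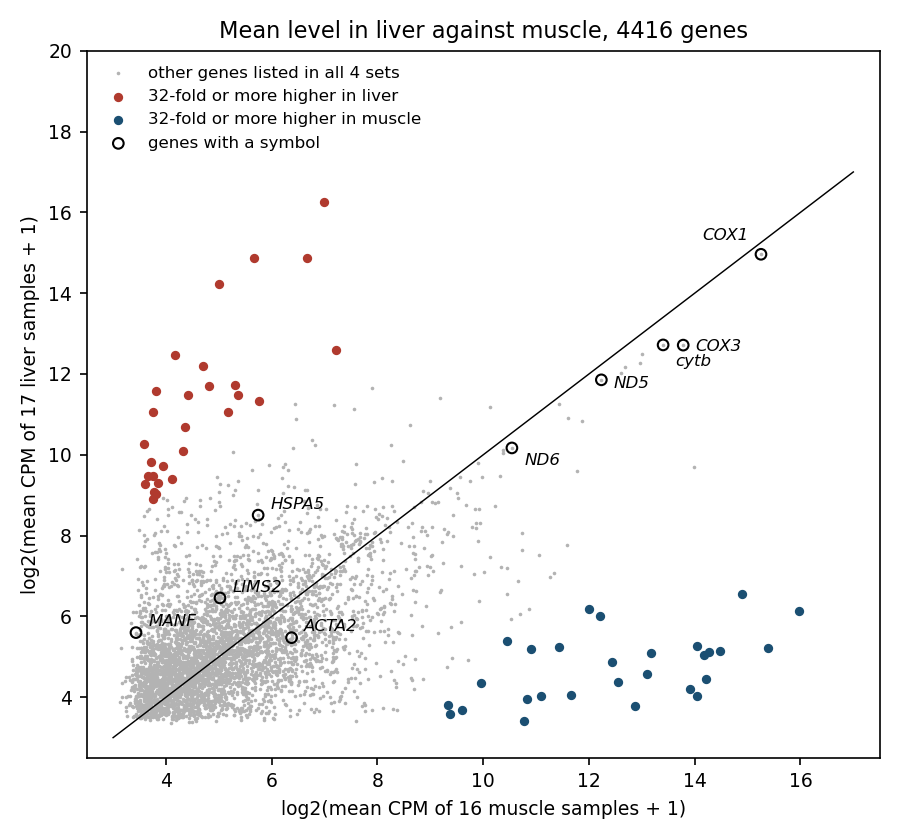
Log2(mean CPM + 1) over 17 liver samples (y) against 16 muscle samples (x) for the 4416 genes listed in all 4 sets, with the line of equality. Red and blue points are the 28 genes at least 32-fold higher in liver and the 28 at least 32-fold higher in muscle, and open circles are the 9 genes with a symbol. COX1 lies near the line, and HSPA5, MANF and LIMS2 lie above it.

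Of the 16 genes with a symbol, 9 were listed in all 4 sets. In the fit over 40 samples 3 of the 9 were called higher in liver (HSPA5, MANF and LIMS2), 3 higher in muscle (COX3, cytb and ACTA2), and 3 were not called (COX1, ND5 and ND6), where 39.1% and 37.8% of all genes were called in these directions. A count this near to the background says nothing particular of these genes. HYOU1 and DBP were listed for liver and bull muscle, and CRELD2, DNAJB11, GSTT1, GMPPB and GNPNAT1 for liver only.

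The 5 ER genes were named by the study in bull liver, so their listing for liver was set by how they were chosen. HSPA5 and MANF were called higher in liver, HYOU1 has values for both tissues in bulls only, and DNAJB11 and CRELD2 were among the 2015 of 8531 genes listed for liver only. HSPA5 encodes BiP, the main Hsp70 chaperone of the ER lumen. It had 145 to 1031 CPM in the 17 liver samples (median 277) and 36 to 87.6 CPM in the 16 muscle samples (median 48.9), with no overlap. The mean in liver was 6.90 times that in muscle, and the log2 difference was 2.37 ± 0.20 (SE). Over all 40 samples it was 1.72 ± 0.31 (limma, adjusted p = 5.66e-06).

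MANF encodes a small secreted ER protein that is induced by ER stress. Its level was 19.0 to 104 CPM in liver (median 35.6) and 3.76 to 12.8 CPM in muscle (median 9.95), again with no overlap. The log2 difference was 1.85 ± 0.19 (SE) in the 33 samples and 1.39 ± 0.25 in the 40 (limma, adjusted p = 7e-06). HYOU1, a large Hsp70-like chaperone of the ER, was one of the 572 genes listed for liver and bull muscle but not heifer muscle. Only 1 of the 6 kept bull muscle samples had 10 CPM or more of it, so that a lower level there than in liver was set by its class. It had 37.2 to 164 CPM in bull liver (median 56.6) and 4.83 to 11.7 CPM in the 6 kept bull muscle samples (median 8.29), a log2 difference of 2.64 ± 0.32 (SE). In heifer liver it had 21.8 to 52.6 CPM (median 35.1).

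DNAJB11, a co-chaperone of BiP, was listed for liver only, at 19.9 to 74.8 CPM (median 25, n = 17). CRELD2, an ER protein with disulfide isomerase activity, was listed for liver only at 8.06 to 51.7 CPM (median 15.3). Both had higher means in bull than in heifer liver: 37.2 ± 16.7 (SD, n = 10) against 23.9 ± 5.14 (SD, n = 7) CPM for DNAJB11, and 24.4 ± 12.3 against 12.5 ± 3.49 for CRELD2, with overlapping ranges. Means of HSPA5 (462 ± 278 and 221 ± 71.9 CPM), MANF (59.2 ± 29.5 and 30.8 ± 9.52) and HYOU1 (75.5 ± 43.5 and 35.9 ± 11) stood in the same order. The difference between bull and heifer liver was not tested. For HSPA5 the spread was wide in liver and narrow in muscle, with an SD within sex of 0.71 and 0.19 on the log2 scale. In bull liver its 5 low RFI samples held 298 to 1031 CPM and its 5 high RFI samples 192 to 363 CPM, and in heifer liver the 3 low RFI samples held 145 to 191 CPM and the 4 high RFI samples 192 to 326 CPM. HSPA5 was named by the study for the RFI contrast in these samples, so these ranges are a description with no test.

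The mitochondrially encoded genes were abundant in both tissues. COX3 and cytb were called higher in muscle over the 40 samples, and COX1, ND5 and ND6 were not. Together the 5 took 3.61% to 7.28% of reads in liver (median 5.02%) and 2.72% to 20.3% in muscle (median 5.51%). The top of the muscle range came from 2 samples, high RFI bull 2641 (20.3%) and low RFI heifer M70 (18.2%), and without them it ran from 2.72% to 8.20%. COX1, a catalytic subunit of complex IV, had 22096 to 46794 CPM in liver (median 30306) and 14623 to 110236 CPM in muscle (median 30968). Muscle samples lay on both sides of the liver range, 3 above all liver samples and 5 below. The log2 difference was -0.21 ± 0.26 (SE), and 0.06 without the 2 samples.

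ND5 and ND6, subunits of complex I, stood likewise. ND5 had a median of 3545 CPM in liver and 3137 in muscle, and ND6 medians of 1114 and 1077 CPM, with log2 differences of -0.21 ± 0.29 and -0.25 ± 0.27 (SE). Over all 40 samples COX1, ND5 and ND6 were not called (limma, adjusted p = 0.206, 0.303 and 0.16), though DESeq2 called all 3 and edgeR called ND5 and ND6, each higher in muscle. With animal as a block in the 5 animals that had both tissues, neither ND5 (-0.87) nor ND6 (-0.77) was called (limma, adjusted p = 0.167 and 0.171). The 5 include bull 2712, whose muscle sample held the liver genes at 93.4% of their liver level. In the 4 of these animals kept by the rule the differences were -0.95 and -0.80. Those samples were chosen on this contrast, so these 2 values are a description with no test. COX3, another core subunit of complex IV, was higher in muscle. It had 4904 to 8360 CPM in liver (median 6766) and 6423 to 48846 CPM in muscle (median 11423), and 11 of 16 muscle samples lay above all liver samples. Its log2 difference was -0.97 ± 0.25 (SE) in the 33 samples, -0.69 without bull 2641 and heifer M70, and -0.75 ± 0.23 in the 40 (limma, adjusted p = 0.00438). The gene cytb, the cytochrome b of complex III, had medians of 6418 CPM in liver and 8257 CPM in muscle, and a log2 difference of -0.58 ± 0.26 (SE), or -0.30 without these 2 samples. It was called over the 40 samples (limma, adjusted p = 0.0372) but not with animal as a block in the 5 animals that had both tissues (limma, -1.0, adjusted p = 0.153). Bull 2712 is again among these 5.

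LIMS2, an adaptor protein of focal adhesions, was higher in liver. It had 43.6 to 141 CPM in liver (median 93.0) and 18.1 to 83.9 CPM in muscle (median 27.8). The muscle maximum came from heifer 2628, and the other 15 muscle samples lay at or below 43.1 CPM. The log2 difference was 1.43 ± 0.16 (SE), 1.5 without heifer 2628, and 1.07 ± 0.17 in the 40 samples (limma, adjusted p = 1.03e-06). ACTA2, the actin of vascular smooth muscle, was higher in muscle, with overlap. It had 17.2 to 113 CPM in liver (median 38.4) and 40.6 to 164 CPM in muscle (median 73.4), a log2 difference of -1.06 ± 0.20 (SE) and, in the 40 samples, of -0.73 ± 0.21 (limma, adjusted p = 0.00215). Actin genes are nearly identical in sequence, so reads could be split between ACTA2 and its relatives.

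DBP, a PAR bZIP factor whose transcript cycles over the day, had 17.7 to 90.9 CPM in bull liver (median 31.3) and 5.50 to 11.5 CPM in kept bull muscle (median 10.3), and a log2 difference of 1.62 ± 0.26 (SE). It too was one of the 572 genes, with 10 CPM or more in 3 of the 6 kept bull muscle samples, and its difference is likewise a description. Heifer liver held 49.2 to 112 CPM (median 62.7). The time of day of the biopsies is not given in the sources used here. GSTT1, a glutathione transferase, was listed for liver only at 6.33 to 39.8 CPM (median 15.2). GMPPB, which makes GDP-mannose, had 8.66 to 37.1 CPM in liver (median 20.3), and GNPNAT1, of the hexosamine pathway, 11.2 to 25.4 CPM (median 15.4). The last was the least variable of the 3, with an SD of 3.59 around a mean of 16.1 CPM.

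**Figure D4:**
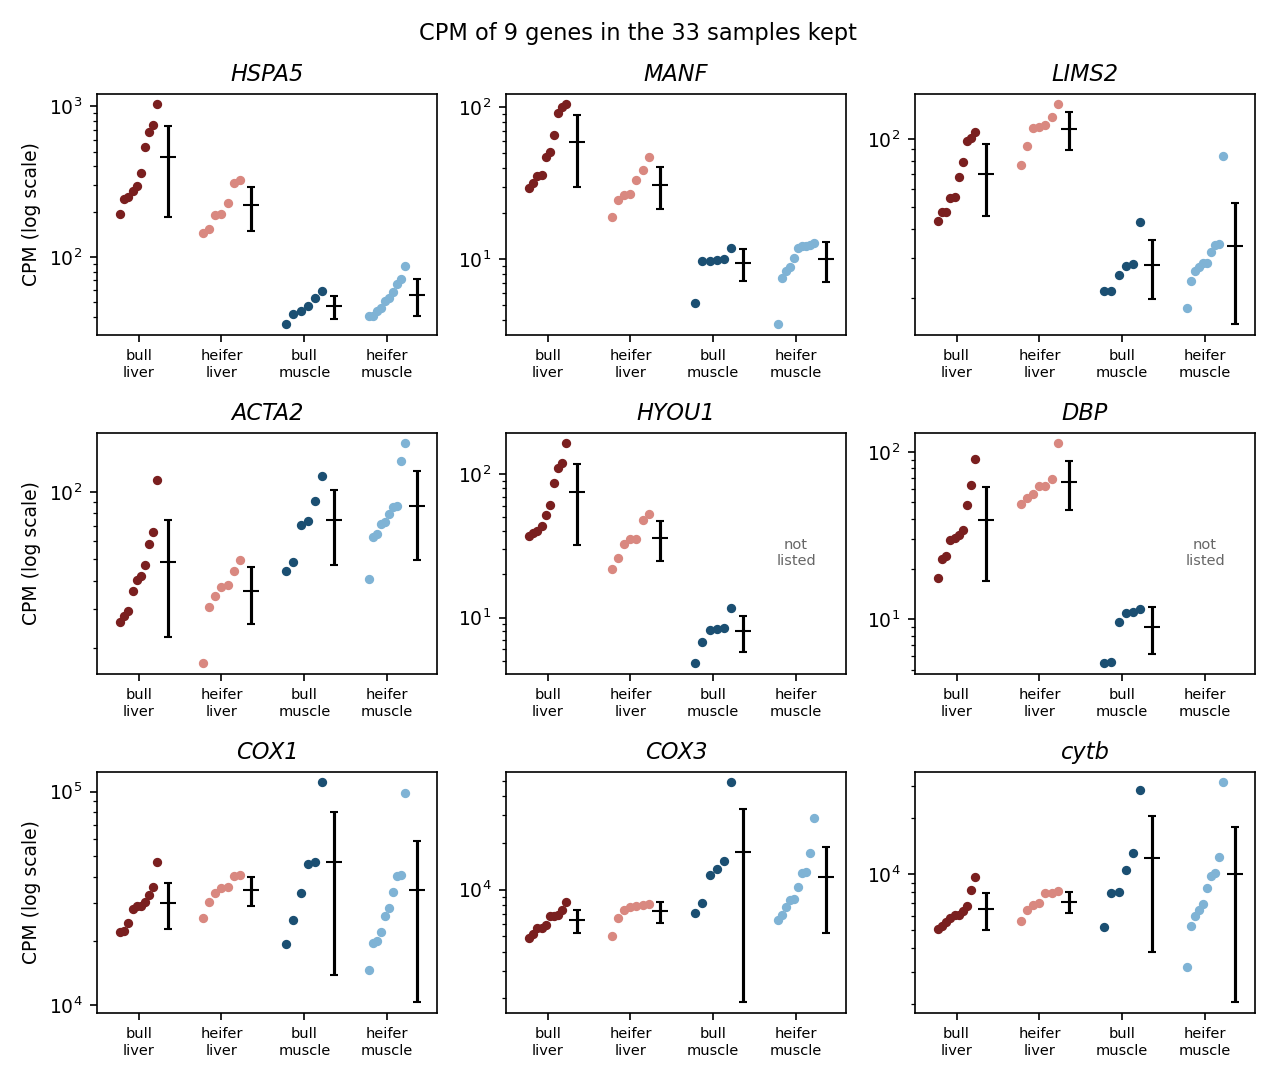
CPM (log scale) of 9 genes with a symbol in each kept sample, by tissue and sex, with the mean ± SD beside the points. HSPA5 and MANF show no overlap between liver and muscle, and HYOU1 and DBP, whose listing in bull muscle went with the samples left out, show none in bulls, while COX1, COX3 and cytb overlap, with bull muscle 2641 and heifer muscle M70 as the highest points.

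Muscle samples varied more among themselves than liver samples. The median SD of a gene within sex was 0.39 on the log2 scale in muscle and 0.21 in liver, and 4093 of 4416 genes (92.7%) had the larger SD in muscle. Heifer muscle had the widest spread (0.42), then bull muscle (0.29), heifer liver (0.22) and bull liver (0.20). Leaving out heifer 2628 lowered the muscle value to 0.32, with 86.9% of genes still more variable in muscle. Leaving out bull 2641 and heifer M70 instead gave 0.37. Among the genes with a symbol, HSPA5 and MANF had the larger SD in liver, 0.71 and 0.62 against 0.19 and 0.35 in muscle, and ACTA2 had 0.59 in both. The 5 mitochondrial genes had an SD of 0.98 to 1.16 in muscle and 0.27 to 0.41 in liver. Muscle of bull 2641 and heifer M70 held the highest values of all 5. Without them the SD of the summed share of these genes in muscle fell from 5.07 to 1.83 percentage points.

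The direction of the tissue difference was compared between bulls and heifers. In the 33 kept samples, of 1877 genes at least 2-fold apart between the tissues in either sex, 1871 differed in the same direction in both. Of all 4416 genes 4111 did. The samples of each sex were kept by their tissue profile, which favours the same direction, so these counts are a description with no test. The interaction of tissue with sex was tested in the 33 samples. All 7 samples left out were bull muscle or heifer liver, so the selection acted on 2 of the 4 groups that this interaction compares, and the calls are given beside those of all 40 samples. In the 33 samples 12 of 4416 genes (0.272%) were called by limma at an adjusted p below 0.1, 7 with a larger liver minus muscle difference in bulls and 5 with a smaller one. At an unadjusted p below 0.05 there were 234. With all 40 samples 1 gene was called, ENSBTAG00000012778. Bulls and heifers differed in sex and in whatever else set the groups apart, which cannot be told apart here.

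The strongest was ENSBTAG00000012778, which turned around between the sexes. Its level was 39.1 to 115 CPM in bull liver and 36.9 to 69.9 CPM in bull muscle, but 23.2 to 39.5 CPM in heifer liver and 43.9 to 91.2 CPM in heifer muscle, where the groups did not overlap. The log2 tissue difference was 0.52 ± 0.19 (SE) in bulls and -1.14 ± 0.18 in heifers, and the interaction was 1.63 ± 0.26 (limma, adjusted p = 0.00119). Over all 40 samples it was 1.49 ± 0.28 (limma, adjusted p = 0.016). ENSBTAG00000008401 differed in muscle. It had 25.6 to 116 CPM in bull muscle and 82.8 to 677 CPM in heifer muscle, with 12.8 ± 2.43 CPM (SD, n = 10) in bull liver and 11.8 ± 2.52 CPM (SD, n = 7) in heifer liver. Its tissue difference was -2.41 ± 0.20 (SE) in bulls and -4.88 ± 0.33 in heifers, with an interaction of 2.45 ± 0.40 (limma, adjusted p = 0.00119). Over all 40 samples this was 2.39 ± 0.77 (limma, adjusted p = 0.96) and was not called.

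In the opposite direction, ENSBTAG00000018382 was higher in heifer liver (46.8 to 67.6 CPM) than in bull liver (23.9 to 46.2 CPM), which did not overlap. Muscle held 21.8 to 37.7 CPM in bulls and 13.1 to 32.4 CPM in heifers. The interaction was -0.96 ± 0.20 (limma, adjusted p = 0.0329). Next by p in this direction was a gene not described here (limma, adjusted p = 0.0689). After it, ENSBTAG00000001288 had 482 to 761 CPM in bull liver and 695 to 844 CPM in heifer liver, against 10.2 to 34.9 CPM in bull muscle and 6.07 to 21.7 CPM in heifer muscle, with an interaction of -1.27 ± 0.30 (limma, adjusted p = 0.0718). ENSBTAG00000018382 and ENSBTAG00000001288 both had an adjusted p of 0.96 over all 40 samples (limma). Of the 12 genes, 5, the first 3 named here among them, were called whichever of the 33 samples was left out, while ENSBTAG00000001288 was called in 14 of 33. These fits stay within the selected samples and cannot show whether a call depends on the selection. Of the 5, only ENSBTAG00000012778 was called over all 40 samples. The count of genes called with 1 sample left out ranged from 5, without muscle of bull 2723, to 18, without muscle of heifer 2628. It fell to 7 without bull muscle 2666 or M65, bull liver 2659, heifer muscle M69 or 2724, or heifer liver 2704 or 2705.

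**Figure D5:**
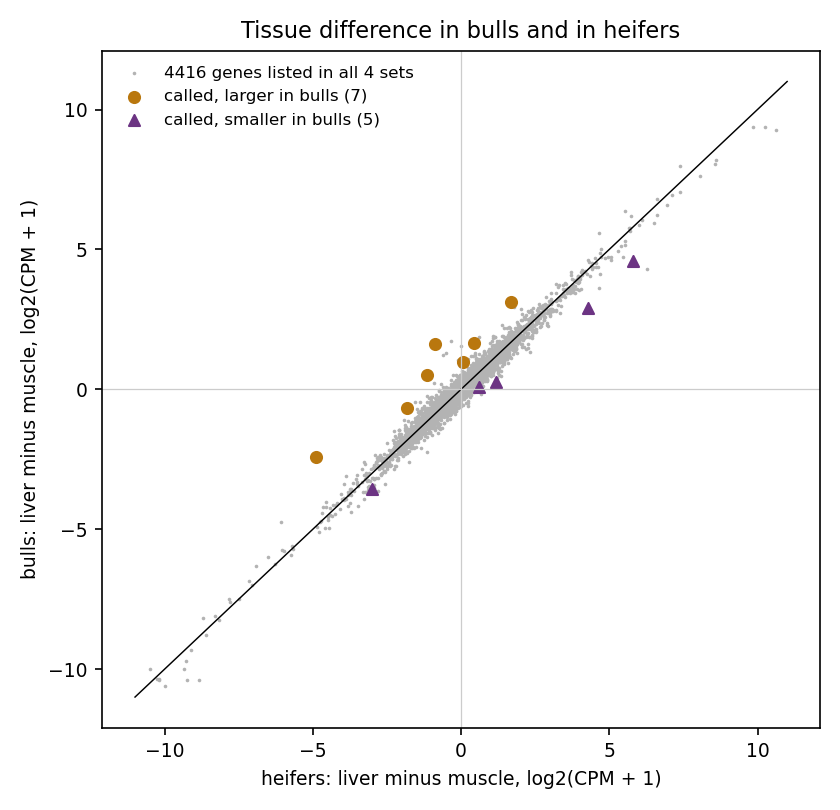
Liver minus muscle difference in bulls (y) against heifers (x), each on the log2(CPM + 1) scale from the kept samples, for the 4416 genes listed in all 4 sets, with the line of equality. Orange circles are the 7 genes called with a larger difference in bulls and purple triangles the 5 with a smaller one. The other genes lie along the line.

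HSPA5 and MANF had larger tissue differences in bulls than in heifers, but the interactions were not called. HSPA5 differed by 2.94 ± 0.31 (SE) in bulls and 1.80 ± 0.15 in heifers on the log2 scale (interaction 1.10 ± 0.36, limma, adjusted p = 0.459), although DESeq2 called it. MANF differed by 2.29 ± 0.27 and 1.39 ± 0.20 (interaction 0.86 ± 0.35, limma, adjusted p = 0.662).

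No tissue difference was called as different between low and high RFI. The interaction of tissue with RFI group was called for 0 of 4416 genes (0%) by limma and for 0 by edgeR, with 135 genes at an unadjusted p below 0.05, and DESeq2 called 3. The smallest adjusted p was 0.999 (limma). Over all genes the interaction had a median size of 0.14 on the log2 scale, with a median SE of 0.22, and 99.9% of genes had an interaction smaller than 1. Bull muscle kept 2 low RFI samples.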

How the data were processed

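RNA-seq of liver and skeletal muscle biopsies from Simmental bulls and heifers was used, as single-end reads from an mRNA library. The authors checked the reads with FastQC 0.11.5, aligned them to UMD 3.1 with STAR 2.5.1, counted protein-coding genes with HTSeq 0.6.1p2, and deposited CPM for some of these genes. How CPM were made and genes chosen is not given in the sources used here. In the bull muscle tables, 1359 rows at the end repeated the liver values of bull 2723 and were dropped, so those columns were entered as another unit. Empty lines were skipped, and 1 stray letter in a heifer liver table was ignored.

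Every CPM value was a whole multiple of 1 read's worth, to within 0.000506 of a read, which gave whole reads and depth. The planned limma test on normalized values was kept, with the count tests as alternatives. After TMM scaling (trimmed mean of M values), log2(CPM + 1) was fitted with limma 3.58.1 (R 4.3.3), with a trended variance, sex as a block and Benjamini-Hochberg adjusted p below 0.1, over the 4416 genes listed in all 4 sets. No further filter on low values was applied. Interactions were fitted in the 33 kept samples. SEs in the 33 describe selected samples. The concentration of reads was tested by permutation. edgeR 4.0.16 and DESeq2 1.42.0 on recovered reads were alternatives. The limma, edgeR and DESeq2 fits were tested on simulated data at their main settings.

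Groups came from the sample labels. Members, lists and tests were chosen with earlier results of these data known. Genes were to be named by rule: the 10 highest in each tissue, the 10 highest listed for 1 tissue only, the 10 largest differences each way, members of fixed lists, and up to 10 genes per interaction. Because no table paired identifiers with symbols, only the 16 symbols given in the study were used, at most 2 identifiers per direction were printed, and the fixed pathway, isozyme and cell type lists were not analysed here. The reference table was of another assembly, so no coordinates or sequences were used.

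Animals with the same tag in both tissues were taken as the same animal, and other tags could not be matched. Among the 4 such pairs kept, deviations from the group means correlated by -0.19 (2641), 0.36 (2723), 0.06 (2704) and 0.59 (2632). The labels do not say how libraries were batched.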

Additional observations from a re-analysis of the deposited data

Results flagged for a closer look

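Of 76 sets of values (a gene or measure in 1 group of 6 to 10 kept samples), 20 had a sample whose gap to its nearest neighbour was large for the range of the group by Dixon's criterion. Chance alone marks about 1 in 20 groups of normally distributed values, and whether these CPM are so distributed was not checked. Most came from a pair of muscle samples, and their 5 mitochondrial genes and the mitochondrial share are one pattern rather than separate ones. The shares of the top gene and of the top 10 in bull 2641 belong to it, because its top gene was COX1 and its top 10 held COX1 and COX3. Muscle of bull 2641 stood above its group for COX1 (110236 CPM), COX3 (48846 CPM), cytb (28520 CPM), the share of the 5 mitochondrial genes (20.3%), the share of the top gene (11%) and that of the top 10 (38.3%), and below it for MANF (5.13 CPM). Muscle of heifer M70 stood above its group for COX1 (98060 CPM), COX3 (28703 CPM), ND5 (18920 CPM), ND6 (5153 CPM), cytb (31217 CPM) and the mitochondrial share (18.2%). Bull 2641 was of high and heifer M70 of low RFI.

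LIMS2 was high in muscle of heifer 2628 (83.9 CPM) and of bull M57 (43.1 CPM). Liver of bull 2712 was high for DNAJB11 (74.8 CPM) and for the mitochondrial share (7.28%), liver of bull 2659 for ACTA2 (113 CPM), and liver of heifer 2632 for DBP (112 CPM). Liver of heifer 2705 had the highest level of the muscle genes among kept heifer liver samples, at 0.63% of the muscle mean, against 0.328% in the next. For the 12 genes of the interaction of tissue with sex, the liver minus muscle difference differed between bulls and heifers in the 33 samples (limma interaction). Over all 40 samples 1 gene was called.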

How the results depend on the processing

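Over all 40 samples, the count of genes that differed between the tissues was 3397. It stayed within 1.5 times under 18 of the 19 other settings. Among the 18 were CPM as deposited (1896 higher in liver and 1443 in muscle), edgeR (1663 and 1750), DESeq2 (1676 and 1799) and no liver of bull 2713 (1476 and 1898). So was the fit without muscle of bull 2641 and heifer M70 (1537 and 1842). Also among the 18 were fits to the kept samples alone and to the kept animals with both tissues. Those samples were chosen on this contrast, so their counts are no evidence of stability. The count was 2041 (991 and 1050) in animals with short tags alone, which are 16 of the 40 samples. These 16 include M12, M6, M74, L58 and L16, which the rule left out. At least 2-fold differences were seen for 402 and 440 genes over all short-tag samples, and for 811 and 815 over the kept ones. With a replicate block for the 5 animals that had both tissues it was 2421 (1209 and 1212), and with the animal as a random block over all samples 3430. Among the genes with a symbol, the replicate block in the 5 animals with both tissues ended the call of cytb. In animals with short tags alone the calls of HSPA5, COX3, cytb and ACTA2 were lost, in heifers alone those of COX3 and cytb, and in bulls alone that of ACTA2, with no change of direction. For the interaction of tissue with sex the count of 12 became 7 on CPM as deposited, 7 with edgeR, 27 with DESeq2, 6 at an adjusted p below 0.05, 6 in animals with 4-digit tags alone and 1 with all 40 samples, and without each sample in turn it ran from 5 to 18. The interaction with RFI stayed at 0 in these settings, and without each sample in turn (0 to 0), except for 3 genes with DESeq2. The share of the top gene differed between the tissues by -2.67 percentage points (permutation p = 0.0049) when only the 4416 genes listed in all 4 sets were counted. That share is of the reads on these genes, a smaller part of the liver total than of the muscle total. Leaving out bull 2641 and heifer M70, or heifer 2628, and leaving out each sample in turn, were chosen after seeing the data. At the lowest depth, 2368340 reads, the genes named here had 15 reads or more. The promoter motif counts were not run. The causes of these changes were not tested.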
